A study of Mus musculus with 8 samples.

Results

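The genes described here encode proteins of epithelial cell adhesion and of cell junctions: the claudins Cldn3, Cldn4, Cldn6 and Cldn7, the adhesion molecules Epcam and Cd24a, the cadherin Cdh1 and the connexin Gja1. These 8 genes were chosen by name, with differences between control and Snf5 CKO germ cells in these same libraries already known. What follows on them is therefore a description. Calls from limma are given for them, but these rest on the same libraries and are no independent test. The genes are 8 of the 23694 named genes of the female table and 8 of the 23409 of the male table. Each has 1 locus in each table.

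RNA was sequenced from germ cells of embryonic day 15.5 (E15.5) mouse gonads, sorted by the fluorescence of an Oct4-EGFP transgene that all groups carried. The 8 libraries comprise 2 controls and 2 Snf5 CKO libraries of each sex, which the paper calls biological duplicates. Values are FPKM, fragments per kilobase of transcript scaled to the size of the library in a way that is not stated, so levels of different genes can be compared, while the number of fragments in a library is not given. Each comparison asks which of these genes differ in level when the SWI/SNF subunit SNF5 is removed from germ cells of that sex. The Snf5 CKO embryos were Snf5fx/Δ with TNAP-Cre, whereas the controls were a mixture of Snf5fx/+ with TNAP-Cre, Snf5fx/+ without it, and Snf5fx/Δ without it, so that some control cells also lacked 1 copy of Snf5 or carried Cre. In TNAP-Cre mice the recombinase is knocked into Alpl, a gene expressed in primordial germ cells, and recombination is incomplete, so Snf5 CKO samples hold some cells with an intact floxed allele. The labels give the strain as C57BL/6, while the methods of the paper describe a mixed background of C57BL/6, 129/Sv and ICR.

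Epithelial cells are held together by junctions. Claudins form the strands of the tight junction, E-cadherin builds the adherens junction, connexins form the channels of gap junctions, and EpCAM is an adhesion protein that also regulates claudins. Primordial germ cells, although not epithelial, are known to carry E-cadherin and EpCAM on their surface while they migrate to and settle in the gonad.

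Smarcb1, the gene that encodes SNF5, was read first as a check of the labels. Female controls had 23.4 and 22.3 FPKM, and female Snf5 CKO had 4.24 and 2.47 FPKM. The log2 fold change was -2.48 (standard error 0.24, limma adjusted p = 0.0002729). Male controls had 141.1 and 167.1 FPKM, and male Snf5 CKO had 8.73 and 10.1 FPKM. There the log2 fold change was -3.90 (standard error 0.18, limma adjusted p = 0.002129). In each sex the libraries labelled Snf5 CKO were the low ones, with no overlap. The tables give 1 value for the whole gene, so reads on the deleted part cannot be seen apart.

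All fold changes are Snf5 CKO against control on log2(FPKM + 1), a scale that shrinks differences of genes near 0. The female and male tables were normalized separately, so the sexes are set side by side and the difference between sexes was not tested. For a single gene, 2 libraries a group allow no exact two-sided permutation p under 0.33. A gene counted as tested when its mean over the 4 libraries of the table was at least 1 FPKM, and as called higher or lower when limma gave a log2 fold change of at least 1 in size and a Benjamini-Hochberg adjusted p under 0.05 over all tested genes. These p-values, and the standard errors given, measure the spread between these libraries. In limma the spread of each gene is drawn toward that of other genes of similar level, so they do not rest on that gene alone.

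In females, 7 of the 8 genes passed the filter on low values and 5 were called higher, namely Cldn3, Cldn6, Cldn7, Epcam and Cd24a. Of all tested female genes 17.3% were called higher and 21.6% lower. In males, 5 of the 8 passed, of which Cldn3, Epcam, Cd24a and Gja1 were called higher and Cdh1 lower, beside 14.4% of all tested male genes called higher and 17.4% lower. Since the genes were selected on these contrasts, nothing is read from these counts. Both Snf5 CKO libraries lay above both controls for 8 of the 8 genes in females. In males this held for 5, while Cdh1 and Cldn4 lay below and Cldn6 overlapped. Of all tested genes, 36.4% lay above and 45.1% below in this sense in females, and 34.55% and 39.96% in males. These shares cover tested genes only, while the counts for the 8 genes include those that the filter left out. The filter left out Cldn4 in both sexes, and Cldn6 and Cldn7 in males. Just inside it was Gja1 in females, with a mean of 1.32 FPKM, and just outside it were Cldn6 and Cldn7 in males, with means of 0.795 and 0.730 FPKM. The germ cells were sequenced in bulk, so fewer cells with a transcript and less of it per cell cannot be told apart.

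**Figure D1:**
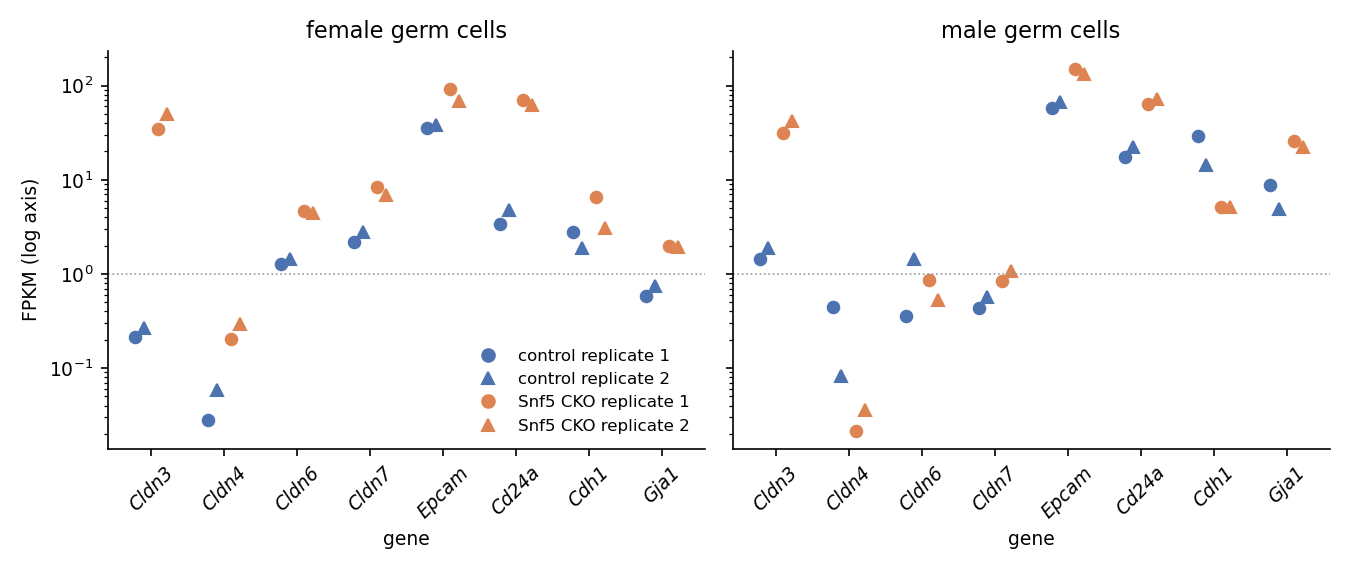
FPKM on a log axis of each of the 8 genes in each library, with blue points for control, orange points for Snf5 CKO, circles for replicate 1, triangles for replicate 2 and a dotted line at 1 FPKM. Cldn3 stands apart in both sexes, with Snf5 CKO libraries far above the controls, while Cdh1 lies above control in females and below it in males.

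The plot of every library's FPKM shows how differently the 8 genes are placed. The sequences upstream of Cldn3, Cldn4 and Epcam are shown because Cldn3 and Cldn4 are neighbours on the same chromosome with very different levels, and Epcam has the highest mean level of the 8 genes in every group. Of the 8, 6 have an entry in the RefSeq promoter table of GRCm38.p6, with 7 entries in all, and Cdh1 and Cd24a have none. Each sequence is the 250 bases before the start, 5′ to 3′ on the strand of the gene. Cldn3 lies at chr5:134985964-134986213 on the plus strand, Cldn4 at chr5:134946935-134947184 on the minus strand and Epcam at chr17:87635729-87635978 on the plus strand. None of these 3 windows overlaps an annotated gene.

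Cldn3: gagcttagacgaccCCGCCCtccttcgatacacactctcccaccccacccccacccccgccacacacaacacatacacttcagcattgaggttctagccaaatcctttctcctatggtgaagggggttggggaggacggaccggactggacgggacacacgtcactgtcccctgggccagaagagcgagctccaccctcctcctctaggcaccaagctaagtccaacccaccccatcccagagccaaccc
Cldn4: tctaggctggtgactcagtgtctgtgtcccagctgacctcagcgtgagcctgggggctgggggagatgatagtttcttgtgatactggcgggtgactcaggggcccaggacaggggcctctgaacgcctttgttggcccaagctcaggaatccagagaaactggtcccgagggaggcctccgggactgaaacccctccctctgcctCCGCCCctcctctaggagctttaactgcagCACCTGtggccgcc
Epcam: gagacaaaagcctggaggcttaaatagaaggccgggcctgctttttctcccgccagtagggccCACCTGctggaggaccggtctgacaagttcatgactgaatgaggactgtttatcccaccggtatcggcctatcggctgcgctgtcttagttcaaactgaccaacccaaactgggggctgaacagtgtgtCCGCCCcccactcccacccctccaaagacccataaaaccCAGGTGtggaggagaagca

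Capitals mark the letters CACCTG or CAGGTG (an E-box) and GGGCGG or CCGCCC (a GC box), each searched on both strands. TATAAA was searched as well and was in none of the 7 windows. Of all 32851 promoter windows of this length, 17.22% hold such an E-box, 32.74% a GC box and 12.37% TATAAA. The Cldn3 window holds 1 GC box, whose first base lies 236 bases before the start, and no E-box. The Cldn4 window holds 1 E-box at 14 bases and 1 GC box at 44 bases before the start, and the Epcam window 2 E-boxes at 187 and 19 bases and 1 GC box at 58 bases. The Cldn6 window holds 1 E-box and 2 GC boxes, while the Gja1 window and the first of the 2 Cldn7 windows hold none of these letters. The second Cldn7 window, which lies within the gene, holds 2 E-boxes at 97 and 57 bases and 1 GC box at 6 bases. No match overlapped another. A match is a description of the letters and no match says nothing of what binds there.

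Cldn3 encodes a claudin that seals tight junctions of many simple epithelia. The annotated gene, on chromosome 5 from 134986214 to 134987472 (GRCm38, plus strand), has a single exon, while its locus in the tables runs on to 135001350. In females Cldn3 was at 0.213 and 0.265 FPKM in control and at 34.7 and 50.3 FPKM in Snf5 CKO. The control libraries were near 0 and both Snf5 CKO libraries were high, with no overlap. The log2 fold change was 5.11 (standard error 0.23), a 177.9-fold difference of the means, and 6.95 with a pseudocount of 0.1 FPKM. Male libraries had Cldn3 at 1.43 and 1.87 FPKM in control and at 31.0 and 41.7 FPKM in Snf5 CKO. Control males stood above control females in listed FPKM, and again no Snf5 CKO library overlapped a control. The male log2 fold change was 3.81 (standard error 0.23) and the means differed 22.1-fold, and with that pseudocount it was 4.38. Cldn3 overlaps the antisense gene Wbscr25 by 40 bases, and the library kit does not mark strand, so reads on those bases cannot be told apart.

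Cldn4, a claudin closely related to Cldn3, lies 39279 bases from it on the opposite strand. In females it was at 0.0279 and 0.0584 FPKM in control and at 0.202 and 0.297 FPKM in Snf5 CKO, a log2 fold change of 0.26. In males it was at 0.443 and 0.0821 FPKM in control and at 0.0217 and 0.0355 FPKM in Snf5 CKO, a log2 fold change of -0.28. All 8 libraries were thus under 1 FPKM, where single fragments weigh heavily, and male control replicate 1 stood above the other male libraries. Leaving out single male libraries put the Cldn4 value between -0.49 and -0.07. With a pseudocount of 0.1 FPKM the log2 fold change was 1.28 in females and -1.29 in males.

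Cldn6, a claudin known from embryonic epithelia and pluripotent cells, was at 1.28 and 1.44 FPKM in female controls and at 4.68 and 4.44 FPKM in female Snf5 CKO. Both Snf5 CKO libraries were higher than both controls, and the log2 fold change was 1.24 (standard error 0.19), or 1.68 with a pseudocount of 0.1 FPKM. In males Cldn6 was at 0.355 and 1.44 FPKM in control and at 0.863 and 0.528 FPKM in Snf5 CKO. Male control replicate 2 was the highest and replicate 1 the lowest of the 4, so the groups overlapped. The male log2 fold change was -0.11, and with single libraries left out it lay between -0.53 and 0.32, so it has no stable sign. Cldn9 lies 137 bases from Cldn6 in the annotation.

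Cldn7, a claudin found along the lateral membrane of epithelial cells and a binding partner of EpCAM, was at 2.16 and 2.82 FPKM in female controls and at 8.31 and 6.82 FPKM in female Snf5 CKO. Both Snf5 CKO libraries lay above the controls, and its log2 fold change was 1.30 (standard error 0.21), or 1.57 with a pseudocount of 0.1 FPKM. In males Cldn7 was at 0.430 and 0.575 FPKM in control and at 0.850 and 1.06 FPKM in Snf5 CKO. The order was the same in males at a lower level, with a log2 fold change of 0.38, which was 0.81 with a pseudocount of 0.1 FPKM.

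Epcam, which encodes the epithelial cell adhesion molecule, was at 35.3 and 38.3 FPKM in female controls and at 92.6 and 68.6 FPKM in female Snf5 CKO. It was high in all 4 female libraries and higher in both of Snf5 CKO, and its log2 fold change was 1.10 (standard error 0.20). Without female Snf5 CKO replicate 1 the log2 fold change was 0.88 and the gene was no longer called. In males Epcam was at 57.3 and 66.9 FPKM in control and at 150.7 and 132.6 FPKM in Snf5 CKO. The groups did not overlap, and the log2 fold change was 1.18 (standard error 0.19). The male call was lost when the libraries were rescaled to a common sum of named genes, where the log2 fold change was 0.99, and without male control replicate 1, where it was 1.07.

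Cd24a encodes a small glycoprotein of the cell surface that is attached by a lipid anchor. In females it was at 3.39 and 4.76 FPKM in control and at 69.9 and 62.1 FPKM in Snf5 CKO. The controls were low and both Snf5 CKO libraries high, and its log2 fold change was 3.73 (standard error 0.20), or 4.001 with a pseudocount of 0.1 FPKM, with means that differed 16.2-fold. Male libraries had Cd24a at 17.6 and 22.2 FPKM in control and at 63.3 and 71.5 FPKM in Snf5 CKO. The male controls were already well above the female ones in listed FPKM, and the male log2 fold change was 1.72 (standard error 0.19). Copies of Cd24a elsewhere in the mouse genome could share its reads, so its level is uncertain.

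Cdh1 encodes E-cadherin, the adhesion receptor of the adherens junction. In females it was at 2.79 and 1.89 FPKM in control and at 6.51 and 3.11 FPKM in Snf5 CKO. Both Snf5 CKO libraries were above the controls, though replicate 2 by little, and the log2 fold change was 0.75 (standard error 0.32). The gene was not called, and with single libraries left out its log2 fold change lay between 0.31 and 1.18, the last without Snf5 CKO replicate 2, where it was called. In males Cdh1 was at 29.5 and 14.3 FPKM in control and at 5.09 and 5.14 FPKM in Snf5 CKO. Both male Snf5 CKO libraries lay below both controls, which differed from each other, and the Snf5 CKO mean was 23.4% of the control mean. The male log2 fold change was -1.82 (standard error 0.36), -2.32 within replicate 1 and -1.31 within replicate 2.

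Gja1 encodes connexin 43, the most widely expressed gap junction protein. In females it was at 0.584 and 0.739 FPKM in control and at 1.99 and 1.95 FPKM in Snf5 CKO. Its level was low in all 4 libraries and higher in both of Snf5 CKO, and its log2 fold change was 0.84 (standard error 0.18), and it was not called. With a pseudocount of 0.1 FPKM in place of 1 the log2 fold change was 1.45 and Gja1 was called. Male libraries had Gja1 at 8.73 and 4.93 FPKM in control and at 25.7 and 22.4 FPKM in Snf5 CKO. The groups did not overlap, and the male log2 fold change was 1.72 (standard error 0.29).

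**Figure D2:**
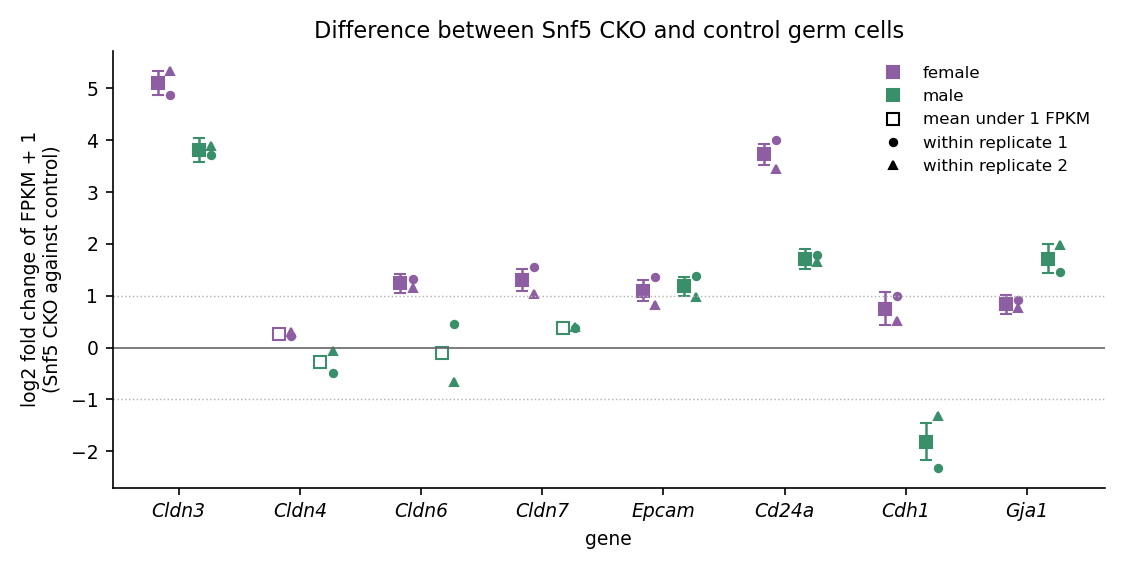
Log2 fold change of Snf5 CKO against control on log2(FPKM + 1) for each of the 8 genes, with purple squares for females, green squares for males, bars of 1 standard error, open squares for means under 1 FPKM and small circles and triangles for the values within replicate 1 and within replicate 2. Cldn3 has the largest values in both sexes and Cdh1 lies on opposite sides of 0 in females and males.

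The plot of fold changes puts the genes on 1 scale. The median log2 fold change of the 8 genes was 1.17 in females and 0.78 in males, or 1.24 and 1.72 for those that passed the filter, beside -0.13 and -0.07 for all tested genes. The median of all genes depends on the scaling. Rescaling by the median of ratios moved it by 0.15 in both sexes and put 52.77% of called female genes and 54.47% of called male genes on the higher side, against 44.47% and 45.16% with the values as deposited. A common sum over named genes moved the male median by -0.17, with 34.41% of called genes higher. The sign of the fold change of each of the 8 genes was the same under both rescalings in both sexes, which for Cldn6 in males says little, since its groups overlap.

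The order of the levels in FPKM differed among groups. In female controls it was Epcam, Cd24a, then Cldn7 and Cdh1, which overlapped, then Cldn6, Gja1, Cldn3 and Cldn4. In female Snf5 CKO, Epcam and Cd24a overlapped at the top, followed by Cldn3, Cldn7, then Cdh1 and Cldn6, which overlapped, then Gja1 and Cldn4. In male controls Epcam was followed by Cd24a and Cdh1, which overlapped, then by Gja1 and by Cldn3, Cldn6, Cldn7 and Cldn4, of which each neighbouring pair overlapped. In male Snf5 CKO the order was Epcam, Cd24a, Cldn3, Gja1, Cdh1, then Cldn7 and Cldn6, which overlapped, and Cldn4. Cldn3 thus stood near the bottom of the order in female controls and among the highest 3 in Snf5 CKO of both sexes.

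The genes around these proteins were read from 10 lists of junction genes, named by function, which leave out the 8 genes above. In females 74 of the 163 listed genes were tested, and 27 rose and 11 fell, which is 36.49% and 14.86%, with a median log2 fold change of 0.32. In males 88 were tested, and 19 rose and 23 fell, which is 21.59% and 26.14%, with a median of -0.22. For all tested genes the shares were 17.3% and 21.6% in females and 14.4% and 17.4% in males. Genes named below are among the called ones with the largest changes of their list, or among the most abundant where none was called.

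**Figure D3:**
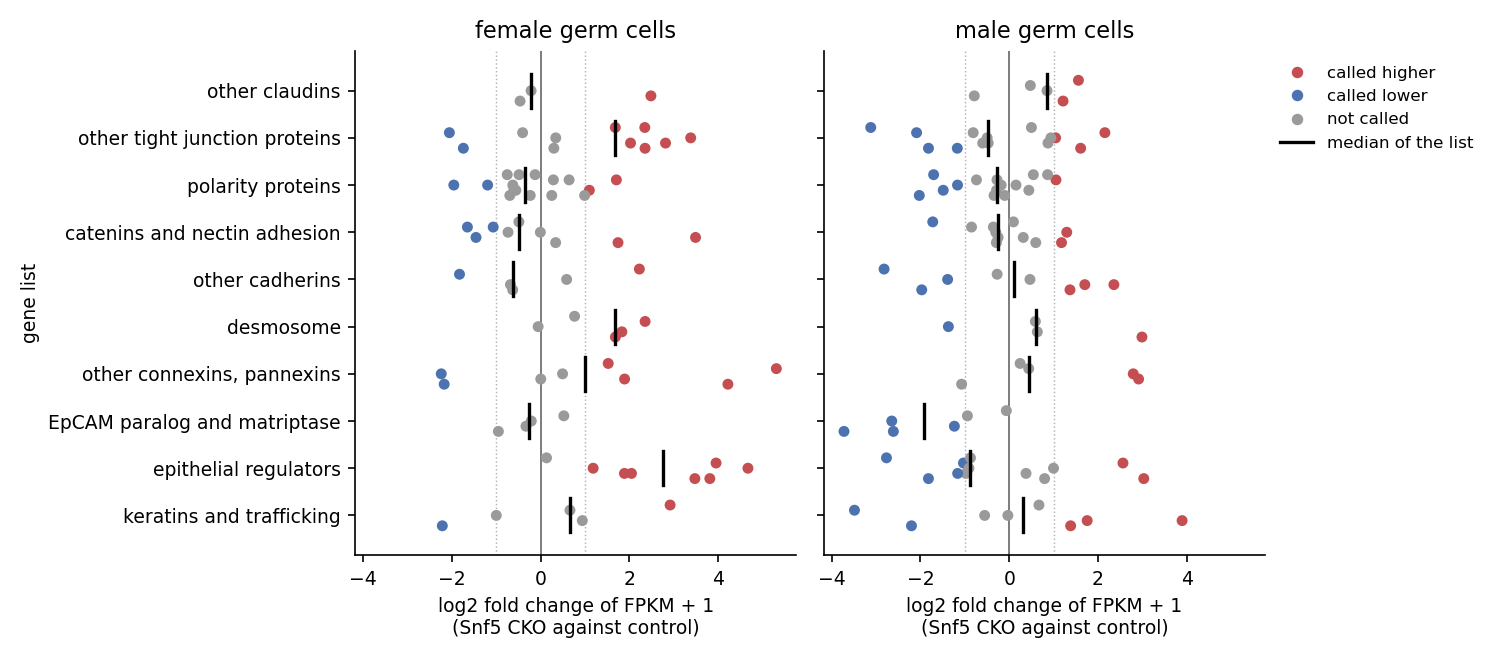
Log2 fold change of Snf5 CKO against control of each tested gene of the junction lists, 1 line of points for each list, with red for called higher, blue for called lower, grey for not called and a black bar at the median. The lists of transcription and splicing regulators, tight junction proteins and desmosomal proteins lie mostly above 0 in females, and the list of the EpCAM paralog, matriptase and its inhibitors lies mostly below 0 in males.

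In the plot of these lists, claudins other than the 4 above were mostly too low to test. Of 22, 3 were tested in females and 1 rose, and 5 in males, of which 2 rose. Cldn18 was at 0.0474 and 0.0977 FPKM in female controls and at 5.39 and 4.63 FPKM in female Snf5 CKO (a log2 fold change of 2.48, adjusted p = 0.0001393 from limma). Cldn5, a claudin of endothelium, was at 1.01 and 0.725 FPKM in male controls and at 4.04 and 4.97 FPKM in male Snf5 CKO (a log2 fold change of 1.56, adjusted p = 0.004293). Both genes lay above control in every Snf5 CKO library of that sex. Cldn5 is also on the endothelial list of markers and Cldn11 on that of Sertoli cells. In males 5 of the 7 endothelial markers lay below both controls in both Snf5 CKO libraries, and only Cldn5 lay above. Cldn11 rose in males as well, with a log2 fold change of 1.21, but the call was lost without a filter on low values and without male control replicate 1.

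Of the other tight junction proteins, 6 of 11 tested rose and 2 fell in females (median 1.68), and in males 3 of 14 rose and 4 fell (median -0.48), with 5 rising after the median of ratios, and 2 of 15 rising and 5 falling under a common sum. F11r, an immunoglobulin-like protein of the junction, was at 2.53 and 2.90 FPKM in female controls and at 35.0 and 40.5 FPKM in female Snf5 CKO (a log2 fold change of 3.38, adjusted p = 9.743e-05 from limma). Jam3, a related adhesion molecule, fell in females, from 20.5 and 16.9 FPKM to 5.40 and 4.38 FPKM (log2 fold change -1.74, adjusted p = 0.0005146). In males Marveld2, which encodes tricellulin of the contacts between 3 cells, was at 13.6 and 12.8 FPKM in control and at 2.53 and 2.17 FPKM in Snf5 CKO (a log2 fold change of -2.09, adjusted p = 0.002417). Tjp3, which encodes a scaffold protein of the tight junction, rose in males from 2.68 and 3.07 FPKM to 16.4 and 16.1 FPKM (log2 fold change 2.15, adjusted p = 0.002251). By the counts above, genes of this list moved in both directions in each sex. The genes named were picked among the largest rises and falls, so their directions follow from that choice.

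At the adherens junction, 2 of 9 tested catenins and nectins rose and 3 fell in females, where 1 fell after rescaling by the median of ratios, and 2 of 11 rose and 1 fell in males. Pvrl2, a nectin, was at 2.39 and 2.23 FPKM in female controls and at 34.1 and 38.3 FPKM in female Snf5 CKO (a log2 fold change of 3.49, adjusted p = 9.743e-05 from limma), and it rose in males with a log2 fold change of 1.30. Ctnna1, an alpha-catenin, rose in males with a log2 fold change of 1.18, a call lost under a common sum, without male Snf5 CKO replicate 1 and without male control replicate 2. Of cadherins other than Cdh1, Cdh3, which encodes P-cadherin and lies next to Cdh1, rose in both sexes. It was at 2.66 and 1.02 FPKM in female controls and at 12.3 and 11.2 FPKM in female Snf5 CKO (a log2 fold change of 2.22, adjusted p = 0.0009184). In males it was at 6.20 and 4.72 FPKM in control and at 37.7 and 26.9 FPKM in Snf5 CKO (a log2 fold change of 2.36, adjusted p = 0.002945). Of these cadherins, 1 of 5 rose and 1 fell in females, and 3 of 8 rose and 3 fell in males, where the median of 0.10 turned to -0.00 under a common sum.

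Of desmosomal genes, 3 of 5 tested rose in females, and 1 of 4 rose and 1 fell in males. Pkp2, which encodes a plakophilin of the desmosomal plaque, was at 4.58 and 4.97 FPKM in female controls and at 32.3 and 25.1 FPKM in female Snf5 CKO (a log2 fold change of 2.35, adjusted p = 0.0001803 from limma). In males it was at 37.1 and 28.9 FPKM in control and at 13.8 and 10.5 FPKM in Snf5 CKO (a log2 fold change of -1.37, adjusted p = 0.008414). Connexins and pannexins other than Gja1 rose in 4 of 8 and fell in 2 of 8 tested in females, and rose in 2 of 5 in males. Gjb5, a connexin gene, was at 0.0971 and 0.235 FPKM in female controls and at 18.5 and 23.1 FPKM in female Snf5 CKO (a log2 fold change of 4.22, adjusted p = 9.743e-05). In males it was at 0.363 and 1.01 FPKM in control and at 8.81 and 12.5 FPKM in Snf5 CKO (a log2 fold change of 2.79, adjusted p = 0.002864). Gjb5 thus lay above both controls in every Snf5 CKO library of each sex, while Pkp2 lay above in females and below in males.

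The list of the EpCAM paralog, matriptase and its inhibitors had 4 tested genes in females, none called by limma. Of these, 1 was higher at an unadjusted p under 0.05. Cd9, named after its values were seen, had an adjusted p of 0.006864 and was short of the fold change at -0.95, and it was called lower without female Snf5 CKO replicate 2 and without female control replicate 1. In males 4 of 6 fell (median -1.92). Spint1, which encodes an inhibitor of matriptase, was at 23.8 and 24.8 FPKM in male controls and at 3.14 and 2.93 FPKM in male Snf5 CKO (a log2 fold change of -2.65, adjusted p = 0.002129 from limma). Tspan8, a tetraspanin, fell from 29.8 and 31.8 FPKM to 1.17 and 1.68 FPKM (log2 fold change -3.72, adjusted p = 0.002129). The other 2 tested genes of this list were not called in males.

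Of transcription and splicing regulators of epithelial genes, 7 of 8 tested rose in females (median 2.76), and in males 2 of 12 rose and 4 fell (median -0.89). The 4 were 7 under a common sum and 3 under the median of ratios. Grhl3, a grainyhead factor, was at 0.191 and 0.229 FPKM in female controls and at 17.5 and 17.9 FPKM in female Snf5 CKO (a log2 fold change of 3.95, adjusted p = 9.743e-05 from limma), whereas in males it was at 17.3 and 14.6 FPKM in control and at 3.58 and 4.01 FPKM in Snf5 CKO (a log2 fold change of -1.82, adjusted p = 0.003082). Grhl2, which is known to activate Cdh1 and claudin genes, fell in males from 11.6 and 9.69 FPKM to 0.634 and 0.780 FPKM (log2 fold change -2.76, adjusted p = 0.002129). Tfap2c, which is also a gene of primordial germ cells, rose in both sexes, with log2 fold changes of 4.67 in females and 3.03 in males. Polarity proteins rose in 2 and fell in 2 of 16 tested in females and rose in 1 and fell in 4 of 15 in males. Of keratins and trafficking genes, 1 of 5 rose and 1 fell in females, and 3 of 8 rose and 2 fell in males.

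Outside the junctions, mesenchymal genes and repressors of Cdh1 rose in 1 and fell in 1 of 4 tested in females, and rose in 1 and fell in 4 of 8 in males. Vim, which encodes the filament protein vimentin, rose in both sexes, with log2 fold changes of 3.15 and 2.41. Fn1, which encodes fibronectin, fell in both, with -2.95 in females and -2.31 in males. Snai3, a factor of the Snail family, was at 8.07 and 12.8 FPKM in male controls and at 1.57 and 1.96 FPKM in male Snf5 CKO. Of integrins, 1 of 8 rose and 3 fell in females, and 2 of 5 rose in males, 1 of which, Itgb3, was not called under a common sum. Rescaling also moved some small counts of other lists by 1 gene: under a common sum males had 1 claudin, 1 catenin or nectin and no polarity protein that rose and 1 connexin that fell, and under the median of ratios 2 keratins or trafficking genes and 2 mesenchymal genes rose in females.

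**Figure D4:**
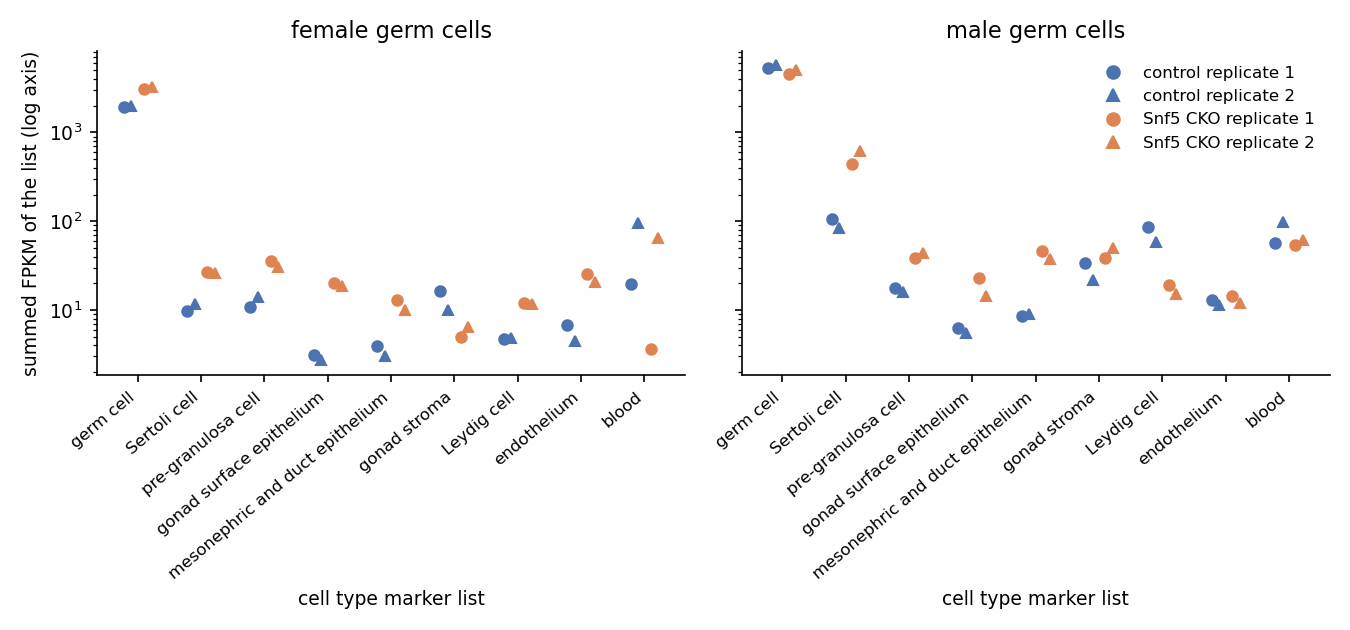
Summed FPKM of each list of cell type markers in each library on a log axis, with blue points for control, orange points for Snf5 CKO, circles for replicate 1 and triangles for replicate 2. Sertoli cell markers sum to more in male Snf5 CKO libraries than in male controls, and germ cell markers sum to far more than any other list in all libraries.

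Markers of other cells of the gonad were read beside these genes, as the plot of summed marker levels shows. The 12 Sertoli cell markers summed to 105.5 and 83.5 FPKM in male controls and 437.9 and 620.3 FPKM in male Snf5 CKO, with 11 of 11 tested called higher and Ptgds the most abundant. In females they summed to 9.66 and 11.8 FPKM in control and 26.5 and 26.2 FPKM in Snf5 CKO, with 2 of 5 called higher and Aard the most abundant. The first-listed defining marker Sox9 was at 2.98 and 2.51 FPKM in male controls and 11.1 and 11.4 FPKM in male Snf5 CKO, and at or under 0.132 FPKM in females. Pre-granulosa cell markers summed to 10.8 and 14.1 FPKM in female controls and 35.8 and 30.6 FPKM in female Snf5 CKO, with 4 of 8 tested higher and 1 lower, and with Bmp2 the most abundant in control and Fst in Snf5 CKO. Foxl2 was at 0.328 and 1.13 FPKM in control and 1.67 and 2.07 FPKM in Snf5 CKO. In males these markers summed to 17.5 and 16.0 FPKM in control and 38.7 and 43.8 FPKM in Snf5 CKO, with 2 of 4 tested higher and 1 lower, and with Rspo1 the most abundant in control and Wnt6 in Snf5 CKO. No marker with a locus in the table of a sex was at 0 in all its libraries. Muc16 of the surface epithelium list had no locus in either table and could not be read. What part these cells have in the values of the 8 genes was not tested.

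Epithelia of the gonad itself were also read. Surface epithelium markers summed to 3.14 and 2.72 FPKM in female controls and 19.9 and 18.6 FPKM in female Snf5 CKO, and to 6.20 and 5.44 FPKM in male controls and 22.7 and 14.4 FPKM in male Snf5 CKO, with Lrrn4 the most abundant and the only one tested, called higher in both sexes. In males the other 6 genes of this list with a locus lay below both controls in both Snf5 CKO libraries, so the sum follows Lrrn4. In females 3 of 7 lay above and 1 below. The first-listed marker Upk3b was at or under 0.250 FPKM in all 8 libraries. Markers of mesonephric and duct epithelium summed to 3.94 and 2.99 FPKM in female controls and 13.0 and 9.87 FPKM in Snf5 CKO, and to 8.57 and 9.09 FPKM in male controls and 46.2 and 37.8 FPKM in Snf5 CKO, with Lhx1 the most abundant, while Pax2 was at or under 0.104 FPKM throughout. Lhx1 was the 1 tested gene in females and 1 of 2 in males, and it was called higher in both. Pax8, the other tested in males and named after its values were seen, was lower, from 2.39 and 3.56 FPKM in control to 0.158 and 0.460 FPKM in Snf5 CKO, with an adjusted p of 0.00615 and a change of -1.60 in log2. In males 5 of the 8 genes of this list lay below both controls in both Snf5 CKO libraries and 3 above, and in females 1 lay below and 4 above, most of these genes being under 1 FPKM. Their part in the claudin, Epcam and Cd24a values was not tested.

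Leydig cell markers went the other way in males, from 85.7 and 58.2 FPKM in control to 19.2 and 15.1 FPKM in Snf5 CKO, with 3 of 5 called lower (4 with the replicate block in the fit) and Insl3, at a locus merged with Jak3, the most abundant. In females they summed to 4.74 and 4.89 FPKM in control and 12.0 and 11.8 FPKM in Snf5 CKO, with 1 of 2 tested higher. Endothelial markers summed to 6.71 and 4.42 FPKM in female controls and 25.6 and 20.5 FPKM in female Snf5 CKO, mostly Pecam1, the 1 gene tested, which was called higher. Of the 7 genes in females, Pecam1 and Cldn5 lay above both controls in both Snf5 CKO libraries, while Cdh5 and Kdr lay below. In males the endothelial markers summed to between 11.3 and 14.2 FPKM, with 1 of 3 tested higher and 1 lower. There 5 of the 7 genes lay below both controls in both Snf5 CKO libraries and 1 above. Stroma markers summed to 16.4 and 9.89 FPKM in female controls and 5.01 and 6.36 FPKM in Snf5 CKO, with 1 of 4 tested lower and Col3a1 the most abundant. In males they summed to 33.8 and 21.5 FPKM in male controls and 38.1 and 50.1 FPKM in Snf5 CKO, with 1 of 4 higher, 3 lower and Mfap4 the most abundant. Only Mfap4 lay above both male controls in both Snf5 CKO libraries and 7 of the 9 genes lay below, so the male sum follows Mfap4. Blood markers, with the merged locus of Hbb-b1 and Hbb-bs the most abundant, differed between libraries of a group, at 19.8 and 96.0 FPKM in female controls, 3.66 and 65.0 FPKM in female Snf5 CKO, 57.0 and 97.2 FPKM in male controls and 54.5 and 61.9 FPKM in male Snf5 CKO. Limma called none of them, of 2 tested in females and 4 in males, and 1 male gene, which passed the adjusted threshold, was short of the fold change. With the replicate block in the fit both female loci, that of Hbb-bs and the merged one of Hba-a1 and Hba-a2, were called lower, with log2 fold changes of -1.42 and -1.22, as they were without female Snf5 CKO replicate 2 and without female control replicate 1. Their part in the results was not tested.

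Germ cell markers were the most abundant list in all libraries. They summed to 1958 and 2005 FPKM in female controls and 3056 and 3229 FPKM in female Snf5 CKO, with 5 of 10 higher and 2 lower, and with Dazl the most abundant in control and Dppa3 in Snf5 CKO. In males they summed to 5360 and 5689 FPKM in control and 4567 and 5119 FPKM in Snf5 CKO, with 1 of 10 higher and 5 lower. Ddx4, the first of the list, was at 362.7 and 295.7 FPKM in female controls, 249.2 and 203.0 FPKM in female Snf5 CKO, 565.1 and 457.6 FPKM in male controls and 299.9 and 236.5 FPKM in male Snf5 CKO. The labelled cell type was thus present in every library. Pou5f1, whose promoter drives the sorting transgene, was at 8.63 and 16.8 FPKM in female controls and 295.0 and 332.7 FPKM in female Snf5 CKO, and at 399.2 and 436.1 FPKM in male controls and 620.4 and 647.9 FPKM in male Snf5 CKO.

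Position was read as well. Of named genes within 50000 bases of 1 of the 8 genes, 21 of 32 were tested in females, of which 10 were higher and 1 lower, and 22 of 32 in males, of which 3 were higher and 1 lower. Beside these, 17.3% of all tested female genes were higher and 21.6% lower, and 14.4% and 17.4% of male ones. The neighbour counts were not tested against these shares. Beside Cldn3, Abhd11os was at 1.76 and 2.66 FPKM in female controls and at 47.4 and 79.6 FPKM in female Snf5 CKO (a log2 fold change of 4.30, adjusted p = 0.0001061 from limma), and at 0.442 and 0.729 FPKM in male controls and 8.20 and 16.6 FPKM in male Snf5 CKO (a log2 fold change of 3.01, adjusted p = 0.003638). Its locus lies 7801 bases beyond the end of the Cldn3 locus of the tables, which reaches past the annotated end of Cldn3. Abhd11, which shares that locus on the other strand, was at 8.19 and 10.7 FPKM in female controls and 80.8 and 82.4 FPKM in female Snf5 CKO, called higher, and at 27.8 and 31.8 FPKM in male controls and 48.4 and 51.3 FPKM in male Snf5 CKO, not called at a log2 fold change of 0.73. Reads of the pair cannot be told apart without strand. Wbscr27, next to Cldn4, was called higher in females with a log2 fold change of 1.02 and not in males, where it was -0.03. The female call was lost without female Snf5 CKO replicate 2 and without female control replicate 2.

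**Figure D5:**
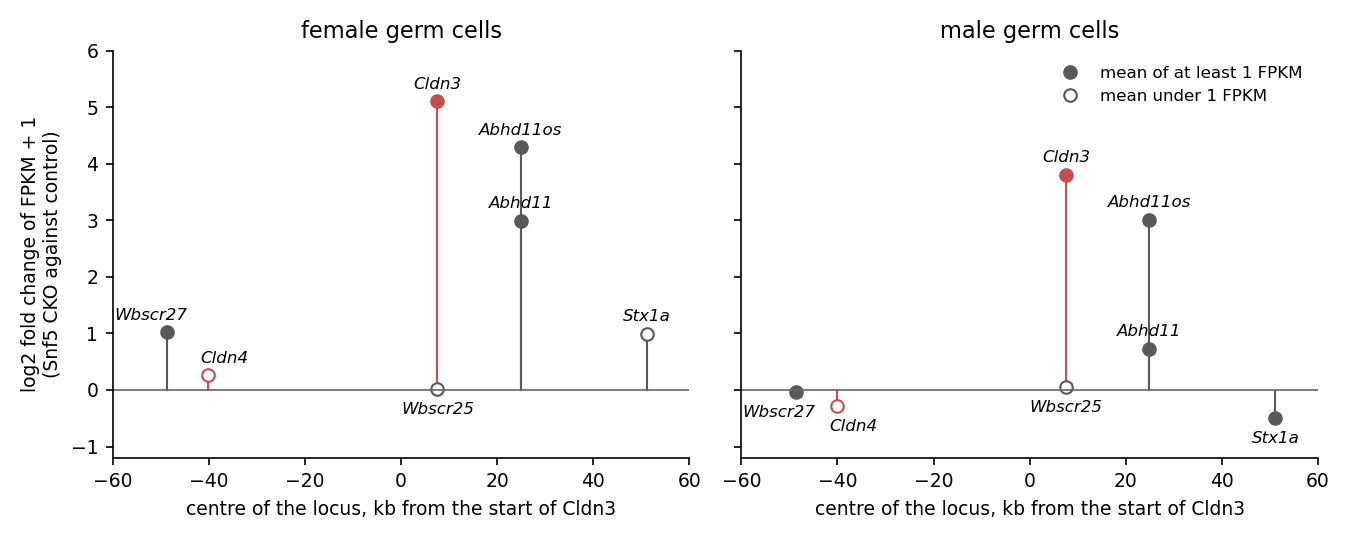
Log2 fold change of Snf5 CKO against control of Cldn3, Cldn4 and the named genes around them, by distance of the centre of the locus in kilobases from the start of Cldn3, with Cldn3 and Cldn4 in red and open points for means under 1 FPKM. Cldn3 and Abhd11os lie far above 0 in both sexes, while Cldn4, under 1 FPKM in all libraries, lies close to 0 on this scale.

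The plot of the surroundings of Cldn3 shows that high fold changes at this position are not shared by all genes there. Next to Cdh1, Cdh3 rose in males, where Cdh1 was lower in Snf5 CKO, and Tango6 was not called in either sex. Around Cldn6, Thoc6, Tnfrsf12a and Paqr4 were called higher in females, while in males Tnfrsf12a was higher and Paqr4 lower. The female call of Tnfrsf12a was lost without female Snf5 CKO replicate 2, and its male call was lost under a common sum, without male Snf5 CKO replicate 2 and without male control replicate 1. Around Cldn7, Phf23 and Dvl2 were higher and Ybx2 lower in females, and limma called none in males, where 1 gene, Ctdnep1, had an adjusted p of 0.0109 but was short of the fold change at -0.92. Gja1 has no named gene within this distance, and the single tested neighbour of Cd24a was not called.

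The genes with patterns nearest to each of the 8 were found by the root mean square difference of log2(FPKM + 1), less the mean of the controls of the same sex, over all 8 libraries and among 10472 genes tested in both sexes. Among those of Cldn3 were Ifitm3 (0.351) and Car14 (0.416), at larger differences than for the other genes. For Cldn4 the nearest were Pars2 (0.0748), Top1mt (0.0836) and Sh3bp2 (0.0917). Cldn4 was under 1 FPKM in all 8 libraries and is nearly flat on this scale, so any gene that hardly differs lies near it. For Cldn6 the nearest were 1700029P11Rik, Pif1 and Klf8, and for Cldn7 Tubb6, Ppa2 and the merged locus of Mir3076 and Tkt. The male means of Cldn6 and Cldn7 were also under 1 FPKM, so their male part of the match says little. The nearest to Epcam were Slc7a7 (0.123), Adsl (0.129) and Trim59 (0.131), and to Cd24a Gm11747 (0.0910), Aldh4a1 (0.185) and Dnph1 (0.222). Cdh1 was nearest to Sun2 (0.173), Spata13 (0.213) and Dhx38 (0.232). Gja1 was nearest to Triap1 (0.118) and Gata4 (0.131). Gata4, which is also on the Sertoli cell list, was at 7.63 and 3.78 FPKM in male controls and 23.9 and 19.4 FPKM in male Snf5 CKO.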

How the data were processed

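RNA was measured in sorted germ cells of 8 libraries, 2 per group. The deposited tables, 1 per sex, hold FPKM values that the authors made by mapping reads to mm10 and quantifying loci with library-size scaling that is not stated; the processing notes of the submitters list TopHat2 2.2.1 and Cuffdiff 2.1.1, while the paper gives other version numbers. Confidence bounds, which fill 16 columns, were set aside. Starts in the tables are counted from 0 and were raised by 1, which matched a GENCODE transcript start for 44.31% (female) and 42.54% (male) of named loci, where unraised starts matched for 4.221% and 4.348%. Loci without a gene name were left out (4737 of 29018 and 6272 of 30216). These held 36.7, 35.3, 9.94 and 28.2% of the summed FPKM of female controls 1 and 2 and Snf5 CKO 1 and 2, and 6.56, 42.1, 5.46 and 35.4% of the male ones, so libraries stand apart in this share. A gene with several loci was taken at the one with the highest mean FPKM.

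For each sex, limma 3.58.1 (R 4.3.3) was run on log2(FPKM + 1), using eBayes and a trend. Named genes whose mean reached 1 FPKM entered (11529 in females and 12279 in males), two-sided, with Benjamini-Hochberg adjustment over all of them. Calls needed a log2 fold change of 1 or more in size and an adjusted p under 0.05. Tables and plots used Python 3.11.15, pandas 2.3.3, numpy 2.4.6 and matplotlib 3.10.9. The fit was tested on simulated data.

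The fit has no term for replicate. Replicate numbers were taken as a shared batch in an alternative with a replicate block, because the male column names call them experiments and the labels name the raw files of replicates 1 and 2 in different styles. The difference of replicate 2 from replicate 1 had a correlation across genes, which are not independent, of 0.5001 in females and 0.6073 in males between control and Snf5 CKO. The tables hold no counts, so depth is unknown and no counting interval is given. From the steps of low values, depth relative to control replicate 1 was 1.89, 1.25 and 2.43 for female control replicate 2 and Snf5 CKO replicates 1 and 2, and 0.946, 1.21 and 1.47 for the male ones. Multiples share the same steps, so these may be off by a whole factor.

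The 8 genes, the gene lists and the marker lists were chosen with earlier results of these data known. From each list and sex, the text names genes among the called with the 2 largest rises and the 2 largest falls, or the 2 most abundant where none was called, the first-listed and most abundant marker, tested neighbours and the 3 nearest patterns; some genes that meet this rule are not reported here. Promoters are RefSeq windows of GRCm38.p6 and gene positions are from the GENCODE annotation of GRCm38. Alternatives were a pseudocount of 0.1 FPKM, no filter, a minimum mean of 5 FPKM, rescaling to a common sum and by the median of ratios, eBayes without trend, the replicate block, the sum of all loci of a name, only loci with status OK and each library left out.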

Additional observations from a re-analysis of the deposited data

Results flagged for a closer look

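Among the 8 genes, 2 had their Snf5 CKO libraries on one side of both controls in females and on the other side in males, and the difference between sexes was not tested for any gene. Cdh1 had a log2 fold change of 0.75 in females and -1.82 in males. Cldn4, under 1 FPKM in all libraries, had 0.26 in females and -0.28 in males. The same held for 28 of the 199 listed genes found in both tables, or 14.1%, beside 13.4% of all named genes in both tables. Of the 28, 10 were tested in both sexes and called in at least 1, as named here after their values were seen. Called in both were Grhl3 (3.95 in females and -1.82 in males), Pkp2 (2.35 and -1.37) and Grhl1, a grainyhead factor (1.18 and -1.03). The male call of Grhl1 was lost under the median of ratios, without male Snf5 CKO replicate 2 and without male control replicate 1. Called in 1 sex only were F11r (3.38 and -0.81), Ovol2 (2.05 and -0.87), Gja4 (1.89 and -1.07), Llgl2 (1.10 and -0.34), Cgn (0.30 and -1.17), Pard6g (-1.19 and 0.44) and Pard3b (-0.75 and 1.05). With the replicate block in the fit, Gja4 was called lower in males as well, and so was called in both sexes. By the same rule, neighbours were Paqr4 (1.10 and -1.34) and Phf23 (1.33 and -0.28), and markers were Dnd1 (4.39 and -1.79) and Nanos3 (2.82 and -2.16) of germ cells, Insl3 (1.18 and -1.66), Mfap4 (-0.83 and 1.605) and Rspo1 (1.63 and -1.199). Calls of Ovol2, Gja4, Llgl2, Cgn, Pard3b, Mfap4 and Rspo1 changed in a sex under some settings. Many genes were read for this, and of all genes tested in both sexes 20.7% lay on opposite sides.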

How the results depend on the processing

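Counts of called genes, over all genes and over the junction lists, stayed within 1.5 times their value under all alternatives run, except at a minimum mean of 5 FPKM, where fewer genes are tested by construction: 5 junction genes were lower in females, and in males 1347 of all tested genes were lower and 12 junction genes were higher and 15 lower. With the replicate block in the fit, 2010 genes were higher and 2499 lower in females, 1850 higher and 2216 lower in males, and the junction counts were 27 and 11 in females and 19 and 24 in males, the added gene being Gja4, named after its value was seen. The block changed no call of the 8 genes. Leaving out single libraries, with the lone library of a group assumed to vary like the others, junction genes higher numbered 26 to 28 in females and 18 to 20 in males, and lower 10 to 12 and 21 to 26. Leaving out junction genes that are also cell type markers, an alternative chosen after seeing the data, gave 27 higher and 11 lower in females and 17 higher and 23 lower in males. Each gene has 1 locus and the block is balanced, so 48 of the log2 fold changes of the 8 genes under other settings could not move. Another 99 moved by less than the spread between replicates and 13 by more, mostly with a pseudocount of 0.1 FPKM. Values with 1 library left out cannot move by more than that spread, so they are among the 99 by construction and say nothing of stability. The 13 came from the pseudocount and the rescalings. No called value changed sign. At a minimum mean of 5 FPKM, Cldn6, Cdh1 and Gja1 of females could not be tested. Without counts, no detection limit can be set for the low claudins, and 2 libraries a group leave the spread poorly known.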
